A study of Mus musculus with 5 samples.

Results

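A set of 10 cytokine receptor genes of itch and inflammation was followed across the cell types of the mouse dorsal root ganglion. They were taken as a named list, namely Il31ra, Osmr, Il6st, Lifr, Il4ra, Il13ra1, Il17ra, Il1r1, Il10ra and Tnfrsf1a, and all 10 were found by symbol among the 17271 rows of the count matrix. The data were single-cell RNA counts of lumbar ganglia from 5 mice of the C57BL/6 strain at an age of 18 weeks. Of these mice 3 were male and 2 female, none was treated or genetically altered, and they form 1 condition. In the droplet assay that was used, each captured transcript carries a unique molecular identifier (UMI), so a count is a number of transcripts. The 3352 cells came in 5 libraries of 164, 474, 539, 805 and 1370 cells, numbered here from 1 to 5 in that order, and each library was taken as 1 mouse. Which library came from which labelled sample, or from which sex, is not given by the names of the cells. The authors had put each cell in 1 of 14 types, 12 of them neuronal with 3047 cells, and these types were used as deposited.

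The libraries held 13050375 to 88886919 UMIs, and the median UMIs per cell ran from 52499.5 to 72840 over the libraries. Neurons held more UMIs per cell, called depth here, than the other cells. Type medians were 30800.5 to 105150 UMIs in neurons, against 17729 in the 249 satellite glia and 16889 in the 56 endothelial cells. Only 7 of 3345 barcodes were found in more than 1 library. The labels of the types were checked against marker genes. The 7 neuron markers summed to at least 11448 counts per 1000000 UMIs (CPM) in every neuronal type and to 765 and 817 CPM in satellite glia and endothelial cells. All 7 endothelial markers and all 6 satellite glia markers were detected in their own types, at sums of 7422 and 95139 CPM. The endothelial cells also carried all 6 satellite glia markers, at 5062 to 19523 CPM over the libraries. Macrophage markers summed to at most 65.1 CPM in any type, and 6 of 10 (C1qa, C1qb, C1qc, Cx3cr1, Csf1r and Mrc1) were at 0 in endothelial cells. Fibroblast markers summed to 474 CPM (196 to 1115, 6 of 6 detected) in satellite glia and 215 (9.93 to 809, 5 of 6, Pdgfra at 0) in endothelial cells. In PEP1_Dcn they summed to 539 CPM (137 to 811, 4 of 6, Col1a2 and Col3a1 at 0), and the list includes Dcn, for which that type is named. Mural cell markers summed to 263 CPM (124 to 721, 5 of 5) in endothelial cells. For Schwann cell markers the sum was 1524 CPM (1121 to 2084, 6 of 6) in satellite glia and 1743 (1483 to 2023, 6 of 6) in the neuronal type Th.

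Dorsal root ganglia hold the cell bodies of the sensory neurons of the body, and some of these neurons signal itch when cytokines released in inflamed skin reach their endings. Cytokine receptors work as pairs or larger assemblies of chains. Interleukin 31 (IL-31) binds a receptor of the chains Il31ra and Osmr. Oncostatin M binds Osmr with Il6st, and leukaemia inhibitory factor binds Lifr with Il6st. IL-4 and IL-13 share a receptor of Il4ra and Il13ra1. These receptors signal through Janus kinases and STAT transcription factors, whereas the receptors of IL-17, IL-1 and tumour necrosis factor reach NF-kB through adaptor proteins. NP_Nts is a non-peptidergic type marked by Nts, Sst and Nppb, which are known from itch neurons, and NP_Mrgpra3 is marked by a receptor for pruritogens. NP_Mrgprd neurons are closely related and innervate the skin.

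The genes Il6st and Il31ra, and Osmr and Lifr, lie close to each other. In RefSeq on GRCm38.p6, Il6st lies on chromosome 13 at 112464070 to 112506860 on the plus strand. Il31ra lies at 112521931 to 112580732 on the minus strand, 15070 bases further, with no annotated gene between them. On chromosome 15, Osmr (6813568 to 6874968, minus strand) and Lifr (7090610 to 7197489, plus strand) are 215.6 kb apart, with 1 noncoding gene between them. Il4ra lies on chromosome 7 (125552271 to 125579474), Il13ra1 on X (36112108 to 36171262) and Il1r1 on chromosome 1 (40222480 to 40316201), all on the plus strand. Il17ra (120463181 to 120483731) and Tnfrsf1a (125349723 to 125362483) are both on the plus strand of chromosome 6, and Il10ra is on the minus strand of chromosome 9 (45253837 to 45269149). Annotated genes overlap Il31ra (Gm3226), Il1r1 (Gm38070) and Il10ra (Mir7086) on the same strand, where reads may be shared between them. On the other strand, annotated genes overlap Il10ra (Gm20612) and Il4ra (Gm44876).

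RefSeq promoter sequences, of 250 bases before and 50 after the start of a gene, were at hand for 8 of the 10 genes. They were searched on both strands for 3 patterns, the STAT pattern TTCNNNGAA, the STAT6-type pattern with 1 base more between TTC and GAA, and the RUNX core TGTGGT. Where RefSeq gives 2 start sites, as for Lifr and Il1r1, both were searched. The STAT pattern was found in Il31ra and Tnfrsf1a, against 8.298% of 32851 promoters of the same length. The other patterns were found in none of the 8 genes, against 6.953% and 16.76% of all promoters. A match is a run of letters, and binding there was not measured. The 250 bases before the start are shown for the 2 chains of the IL-31 receptor, since these were the 2 receptors with the largest differences between NP_Nts and other cells. They are written 5′ to 3′ on the minus strand of GRCm38.p6, at chr13:112580663-112580912 for Il31ra and chr15:6874314-6874563 for Osmr. Capitals mark the match to TTCNNNGAA, which begins 191 bases before the start site of Il31ra in that table. In both genes this start site lies inside the outermost annotated end. Of their bases, 42% were G or C in Il31ra, with 4 CpG sites, and 66% in Osmr, with 18 CpG sites.
Il31ra: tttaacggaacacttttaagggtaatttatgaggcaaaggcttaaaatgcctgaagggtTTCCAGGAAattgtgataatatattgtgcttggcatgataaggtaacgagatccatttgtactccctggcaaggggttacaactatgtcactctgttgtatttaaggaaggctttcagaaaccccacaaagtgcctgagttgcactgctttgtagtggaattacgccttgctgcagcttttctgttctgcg
Osmr: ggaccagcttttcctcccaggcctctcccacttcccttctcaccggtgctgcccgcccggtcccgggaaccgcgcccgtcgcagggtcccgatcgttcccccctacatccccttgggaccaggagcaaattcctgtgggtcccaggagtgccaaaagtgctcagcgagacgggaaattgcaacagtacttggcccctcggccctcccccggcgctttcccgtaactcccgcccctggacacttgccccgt

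Levels are given as CPM, that is, the UMIs of a gene per 1000000 UMIs of all cells of a type in a library, as the mean ± SD over the 5 libraries. Since 3′ UMI counts differ between genes in capture, levels are compared between types for 1 gene and not between genes. For tests, the UMIs of the cells of a type and of all other cells were summed in each library, and edgeR was fitted to all genes. A difference was called at an adjusted p under 0.01 with at least a 2-fold change. The types had been defined from these same counts, so the calls describe the types and are no independent evidence that they exist. The 14 comparisons share cells, since each type is also among the other cells of the rest. Of the 140 pairs of a receptor and a type, 127 passed the filter on low counts and 83 were called, 28 higher and 55 lower. Over the 14 comparisons, 3.12% to 21.4% of all genes tested were called higher and 8.28% to 34.2% lower.

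Il31ra, the chain that binds IL-31, was almost wholly in NP_Nts. Its level there was 257, 308, 317, 268 and 277 CPM in libraries 1 to 5, a mean of 285.8 ± 26.0 (SD, n = 5). The next type, PEP1_S100a11.Tagln2, stood at 0, 9.47, 2.32, 6.94 and 6.32 CPM, so that no library of it came near NP_Nts. NP_Nts held 5987 of the 6288 Il31ra UMIs, or 95.2%, in 400 cells. The gene was 7.62 higher in NP_Nts than in other cells on the log2 scale (SE 0.19, edgeR adjusted p = 2.7e-12). Without NP_Nts, as between NP_Mrgpra3 and NP_Mrgprd, Il31ra did not pass the filter on low counts, so this call is a description. It was called lower in each of the other 13 types, whose comparison group contains NP_Nts, though in endothelial cells not with sums of at least 10 cells (adjusted p = 0.0172) or without library 2 (adjusted p = 0.0193). After NP_Nts, the levels of no neighbouring types in the order of means were separated, where separated means that the higher type was higher in all 5 libraries by a mean difference above its SD.

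**Figure D1:**
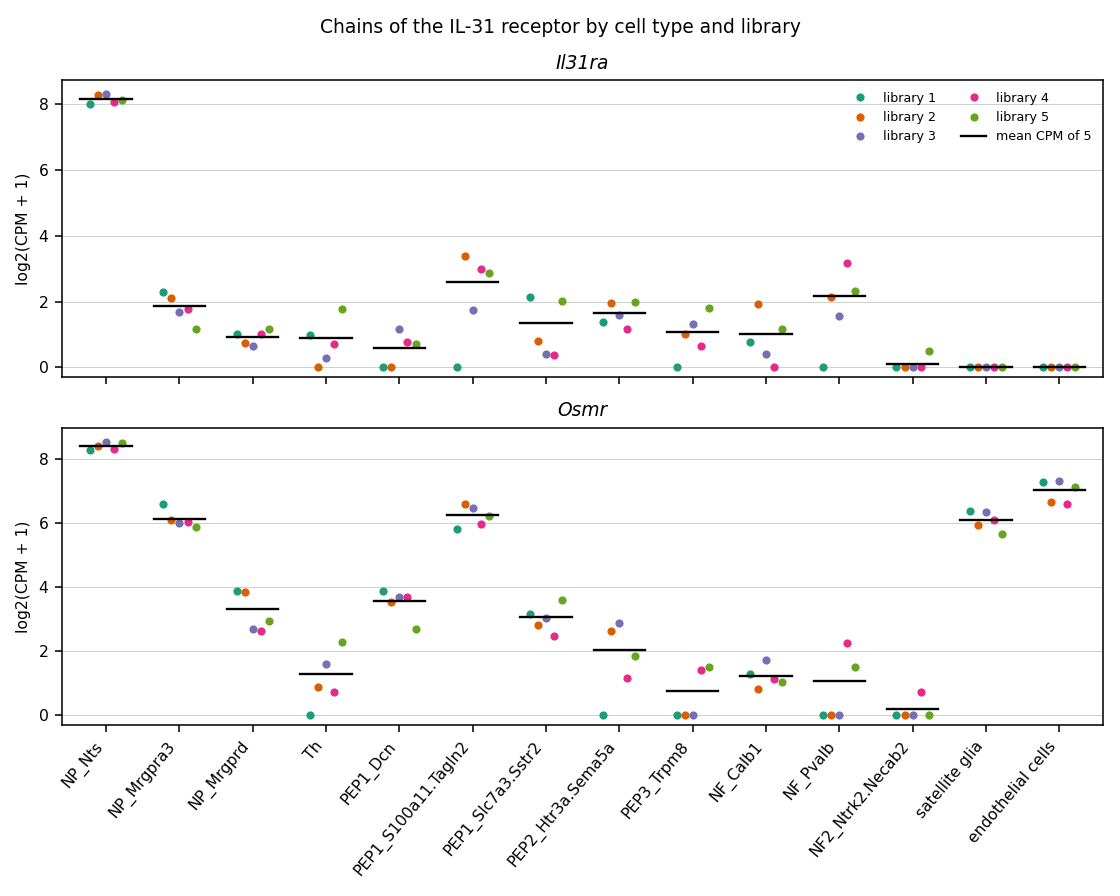
Levels of Il31ra (upper panel) and Osmr (lower panel) as log2(CPM + 1) in the 14 cell types, with 1 point per library (5 colours) and a bar at the mean CPM of 5. NP_Nts stands above all other types in all 5 libraries for both genes, at means of 285.8 and 335.8 CPM.

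Cell by cell, 399 of the 400 NP_Nts cells had an Il31ra UMI (99.75%, exact 95% interval 98.6 to 99.99%), with a median of 15 UMIs per cell and a middle range of 11 to 19. Thinned to 10000 UMIs per cell, 92.25% still had one. In satellite glia there was no Il31ra UMI in 249 cells, which allows a share of cells with a UMI of up to 1.2% (3 counts over the cells), and NP_Nts was at least 435-fold higher than the 3 counts that a sum of 0 allows. In endothelial cells there was none in 56 cells, which allows a share of up to 5.36%, and NP_Nts was at least 89.6-fold higher. These limits and intervals cover counting error only, and both types were shallower than the neurons.

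Outside NP_Nts, 195 of 2952 cells had an Il31ra UMI, and 158 of them had exactly 1. The share was 17.7% in PEP1_S100a11.Tagln2 at a median depth of 49113 UMIs, 15.9% in NF_Pvalb at 66720 and 13.5% in NP_Mrgpra3 at 88652, against 1.72% in NF2_Ntrk2.Necab2 at 96530.5. After thinning to equal depth these shares were 4.42%, 6.19%, 1.92% and 1.72%. Only 9 cells outside NP_Nts had 5 or more Il31ra UMIs, compared with 384 of the NP_Nts cells. Of those 9 cells, 4 were labelled NP_Mrgprd, 7 held at least 5 UMIs of Nts, 7 of Sst and 6 of Nppb, at a median depth of 101872 UMIs. Among other cells with fewer Il31ra UMIs, 0.612% held at least 5 UMIs of Nts.

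Osmr, the chain shared by the receptors of IL-31 and oncostatin M, was also highest in NP_Nts but reached further. It stood at 305, 334, 369, 311 and 359 CPM there (335.8 ± 28.3, n = 5), above every other type in all 5 libraries. Endothelial cells followed with 154, 99.7, 155, 94.3 and 139 CPM (128.5 ± 29.6). PEP1_S100a11.Tagln2 (74.2 ± 17.2 CPM), NP_Mrgpra3 (69.0 ± 14.4) and satellite glia (67.3 ± 13.5) formed a next level, in which neighbours were not separated. In NP_Mrgpra3, library 1 with 4 cells stood at 94.0 CPM and the others at 57.4 to 66.9. The remaining 9 types were at 10.7 CPM or less, down to 1 UMI in the 58 cells of NF2_Ntrk2.Necab2. Osmr was called higher in NP_Nts (log2 fold change 4.56, SE 0.12, edgeR adjusted p = 2.7e-12) and in endothelial cells (1.63, SE 0.24, adjusted p = 1.2e-05), and lower in the 9 types of low level. The differences of NP_Mrgpra3 (0.88), PEP1_S100a11.Tagln2 (0.97) and satellite glia (0.90) were under 2-fold.

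Il6st, the signal-transducing chain shared by the IL-6 family, was highest outside the neurons. Its level in endothelial cells was 120, 84.9, 159, 99.3 and 194 CPM (131.4 ± 44.7) and in satellite glia 80.7, 70.0, 81.0, 67.3 and 72.2 CPM (74.2 ± 6.3). Both stood above each neuronal type in all 5 libraries. Among neurons the level ran from 43.8 ± 4.4 CPM in PEP1_S100a11.Tagln2 to 7.46 ± 3.33 in NF2_Ntrk2.Necab2. In NP_Nts it was 35.3 ± 5.1 CPM. Il6st was called higher in endothelial cells (log2 fold change 2.17, SE 0.20) and satellite glia (1.56, SE 0.13), and lower in NF2_Ntrk2.Necab2 (-2.01), PEP3_Trpm8 (-1.32) and Th (-1.10).

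Lifr, which pairs with Il6st, showed the smallest range of the 10 genes between types. It was highest in NP_Nts at 250, 252, 302, 280 and 275 CPM (271.8 ± 21.5) and lowest in satellite glia at 47.9, 45.8, 39.2, 53.8 and 49.1 CPM (47.2 ± 5.4), a ratio of means of 5.76. NP_Mrgprd (235.6 ± 21.4 CPM), PEP2_Htr3a.Sema5a (220.9 ± 44.3) and PEP1_S100a11.Tagln2 (214.1 ± 18.3) came next and were not separated from their neighbours. Lifr was called in 3 types and was lower in each, in satellite glia (log2 fold change -1.99, SE 0.13), PEP3_Trpm8 (-1.43, SE 0.17) and endothelial cells (-1.08, SE 0.19). The endothelial difference fell under 2-fold without library 5 (-0.91) and with sums of at least 10 cells (-0.97). Il6st was thus highest in endothelial cells and satellite glia, where Lifr was called lower. Their means over the 14 types, as log2(CPM + 1), had a correlation of -0.30, which takes neurons and other cells together. Among neuronal types, both genes were called lower in PEP3_Trpm8, and only Il6st in NF2_Ntrk2.Necab2 and Th.

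Il4ra, the shared chain for IL-4 and IL-13, and Il13ra1, its partner, were both called higher in endothelial cells, PEP1_Slc7a3.Sstr2 and PEP1_S100a11.Tagln2. They parted in PEP1_Dcn, where Il4ra was called higher and Il13ra1 was not (0.96), and in NP_Nts, where Il13ra1 was called higher and Il4ra was not (-0.73). Il4ra stood at 72.0 ± 29.0 CPM in endothelial cells, 71.7 ± 15.6 in PEP1_Slc7a3.Sstr2, 62.2 ± 22.2 in PEP1_Dcn and 60.2 ± 22.3 in PEP1_S100a11.Tagln2. These 4 types were not separated from each other as neighbours, and without library 2 or 4 PEP1_Slc7a3.Sstr2 had the highest mean (66.5 and 72.7 CPM). PEP1_S100a11.Tagln2 was separated from NP_Mrgpra3 at 29.3 ± 8.5 CPM. Library 2 of PEP1_S100a11.Tagln2 was at 98.9 CPM and the other libraries at 41.2 to 56.4. All 4 types were called higher, by log2 fold changes of 1.88 (SE 0.26), 1.93 (SE 0.16), 1.52 (SE 0.21) and 1.56 (SE 0.20). NF2_Ntrk2.Necab2 (-4.15), NF_Pvalb (-3.25), Th (-1.51) and NF_Calb1 (-1.34) were called lower. In satellite glia Il4ra was at 15.1, 10.4, 32.9, 10.3 and 14.4 CPM, where library 3 lay apart.

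Il13ra1 was at 31.5 ± 5.3 CPM in endothelial cells, 23.5 ± 6.3 in PEP1_Slc7a3.Sstr2, 16.8 ± 5.0 in NP_Nts and 15.9 ± 2.9 in PEP1_S100a11.Tagln2. All 4 were called higher, by log2 fold changes of 2.22, 2.04, 1.65 and 1.40. In NP_Nts the 5 libraries gave 10.2, 12.8, 21.3, 20.2 and 19.4 CPM, against 5.87, 3.35, 6.65, 6.77 and 6.29 in NP_Mrgpra3, without overlap. The 7 types called lower were NF2_Ntrk2.Necab2 (-5.20), Th (-3.41), PEP2_Htr3a.Sema5a (-2.05), NF_Pvalb (-2.01), satellite glia (-1.80), NF_Calb1 (-1.70) and NP_Mrgprd (-1.10). Satellite glia held 8 Il13ra1 UMIs in all, and their call was lost without library 3 (adjusted p = 0.0103) or library 4 (adjusted p = 0.0121). In NP_Mrgprd the difference fell under 2-fold without library 4 (-0.98) or library 5 (-0.90). Across the 14 types, the means of Il4ra and Il13ra1 had a correlation of 0.84, the highest among the 45 pairs of receptors, followed by Osmr and Il6st at 0.79. Both are descriptions over types that share libraries.

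Il17ra, the common chain of IL-17 receptors, was highest in endothelial cells, PEP1_Slc7a3.Sstr2 and satellite glia. The endothelial libraries gave 68.6, 18.5, 23.2, 24.8 and 27.7 CPM (32.6 ± 20.4), and the first of these rests on 3 cells. Without library 1 the mean was 23.5 CPM, and PEP1_Slc7a3.Sstr2 was above endothelial cells in the other 4 libraries. PEP1_Slc7a3.Sstr2 was at 21.5, 32.8, 28.9, 27.8 and 28.4 CPM (27.9 ± 4.1) and satellite glia at 20.5 ± 4.4. PEP1_Dcn (12.4 ± 4.7 CPM) and NP_Nts (12.2 ± 1.7) came next, and the libraries of NP_Nts ran from 11.03 to 15.2 CPM. It was called higher in 6 types, PEP1_Slc7a3.Sstr2 (log2 fold change 3.06, SE 0.17), endothelial cells (2.49, SE 0.35), satellite glia (2.45, SE 0.21), PEP1_Dcn (1.54), NP_Nts (1.5) and PEP1_S100a11.Tagln2 (1.04). The last was lost under 5 of the alternatives, with log2 fold changes down to 0.91 and adjusted p of up to 0.0274. It was called lower in 7 types, by -1.75 in PEP2_Htr3a.Sema5a to -3.99 in NF_Calb1, of which NP_Mrgpra3 (-2.02, 10 UMIs in all) was lost without library 2, 4 or 5 (adjusted p up to 0.0446).

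Il1r1, the signalling receptor of IL-1, followed another pattern. It was highest in PEP1_Dcn at 6.85, 44.9, 21.8, 16.7 and 15.5 CPM (21.2 ± 14.3), then in the proprioceptive type NF_Pvalb at 17.3, 6.72, 19.8, 14.9 and 17.4 CPM (15.2 ± 5.0) and in PEP1_Slc7a3.Sstr2 (14.1 ± 4.4). These types overlapped, and without library 2 the mean was 15.2 CPM in PEP1_Dcn and 17.3 in NF_Pvalb, which was then the highest. They were called higher by log2 fold changes of 2.62 (SE 0.32), 1.85 (SE 0.30) and 1.78 (SE 0.27). Satellite glia were called higher too (1.13, SE 0.33, edgeR adjusted p = 0.0056), but not without library 1, 3 or 4 or with library sizes in place of TMM (adjusted p of up to 0.0231). Il1r1 was called lower in the 3 non-peptidergic types and PEP3_Trpm8. In NP_Mrgprd it stood at 0.10 to 0.42 CPM (log2 fold change -4.54, SE 0.28). In NP_Nts it was at 0, 0.441, 4.27, 0 and 0 CPM (-3.22, SE 0.77), with 10 UMIs in 4 cells of libraries 2 and 3. DESeq2 did not call this difference (adjusted p = 0.0891), and edgeR did not without library 1, 2 or 4 (adjusted p up to 0.0173). The call in NP_Mrgpra3 (-1.44, adjusted p = 0.0090) was lost without any 1 of libraries 2 to 5 (adjusted p up to 0.0344).

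Il10ra, the chain that binds IL-10, was near the limit of detection, with 118 UMIs in 107 cells. It was highest in NP_Nts at 2.92, 3.09, 2.37, 1.66 and 2.11 CPM (2.43 ± 0.59), and PEP1_Slc7a3.Sstr2 followed at 1.13, 2.24, 2.60, 2.30 and 1.08 CPM (1.87 ± 0.71). Only these 2 types were above 0 in all 5 libraries together with NP_Mrgprd, where 25 UMIs in 900 cells gave 0.27 ± 0.09 CPM. It was at 0 in 5 types. Il10ra passed the filter on low counts only in the comparison of NP_Nts, through its level in that type, so that its fitted log2 fold change of 2.54 (SE 0.32) is given as a description and its call supports nothing further. In 40 cells, 10% of NP_Nts, there was an Il10ra UMI, and 1.75% after thinning, and in NP_Mrgpra3 in 0 of 104, which allows up to 2.88% of cells with a UMI by the 3-count limit (3.48% by the exact 95% interval). At this level the shares do not tell which cells express the gene.

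Tnfrsf1a, the main receptor of tumour necrosis factor, was highest in endothelial cells at 566, 406, 344, 467 and 388 CPM (434.2 ± 85.9) and next in satellite glia at 108, 119, 149, 91.8 and 101 CPM (113.9 ± 21.9). Both were separated from the next type in all 5 libraries. Among neurons it ran from 27.6 ± 3.9 CPM in NF_Calb1 and 26.1 ± 11.8 in PEP3_Trpm8 to under 1 CPM in the 3 non-peptidergic types and NF_Pvalb. In NP_Nts it was at 0, 1.76, 1.42, 0.553 and 0.666 CPM, and no library of NF_Calb1 was under 21.6 CPM. It was called higher in endothelial cells (log2 fold change 5.41, SE 0.23), satellite glia (3.82, SE 0.20), NF_Calb1 (1.26, SE 0.25) and PEP3_Trpm8 (1.23, SE 0.32). The NF_Calb1 difference fell to 0.99 without library 5, and the PEP3_Trpm8 call was lost under 5 alternatives (adjusted p up to 0.0670). It was called lower in NP_Mrgprd (-4.50), NF_Pvalb (-4.24), NP_Nts (-4.0), NP_Mrgpra3 (-3.55) and Th (-3.45).

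**Figure D2:**
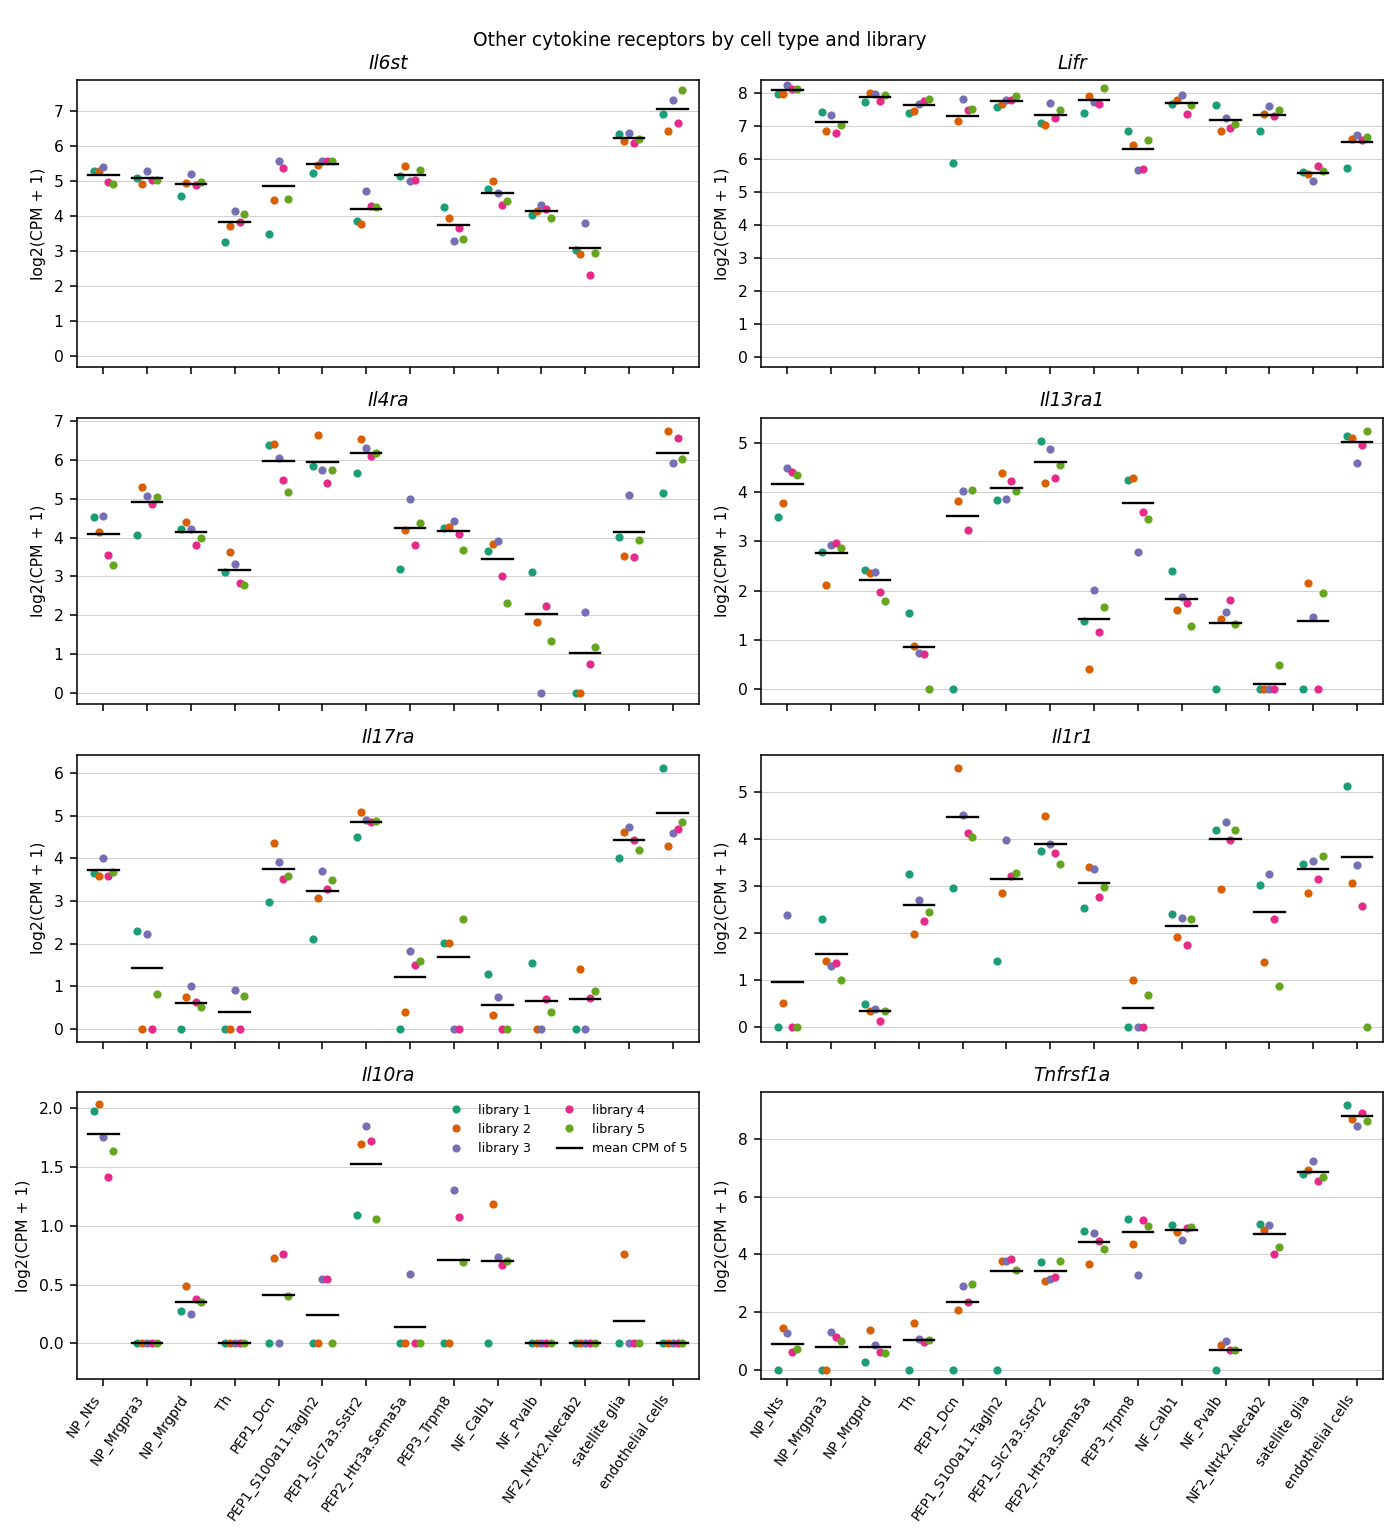
Levels of the other 8 receptors as log2(CPM + 1) in the 14 cell types, 1 point per library and a bar at the mean CPM of 5, with an axis of its own for each gene. Il6st and Tnfrsf1a are highest in endothelial cells and satellite glia, Lifr is lowest in satellite glia (47.2 CPM), and Il4ra and Il13ra1 share 3 of their 4 highest types.

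Read by type, NP_Nts had 5 receptors called higher and 2 lower of 10 tested, against 6.13% and 18.5% of all genes. The higher ones were Il31ra, Osmr, Il10ra, Il13ra1 and Il17ra, and the lower ones Tnfrsf1a and Il1r1. Il10ra was tested through its level in NP_Nts alone, and without it 4 of the 9 receptors tested in every type were higher. Il31ra is 1 of these 4. It was tested in the other types with NP_Nts among the other cells, and between NP_Mrgpra3 and NP_Mrgprd it did not pass the filter. Its part in this count is therefore a description too. With Il10ra included, the median log2 fold change of the receptors was 0.97, against -0.08 for all genes tested. Without it, the middle value of the 9 was 0.44, that of Lifr. In PEP1_Slc7a3.Sstr2, 4 of 9 were higher (6.93% of all genes) and 2 lower (12.1%), in PEP1_Dcn 3 were higher (6.87%) and 2 lower (8.28%), and in PEP1_S100a11.Tagln2 3 were higher (3.98%) and 1 lower (8.36%). Satellite glia markers summed to 753 CPM (314 to 1512) in PEP1_S100a11.Tagln2, the highest sum of any neuronal type, and their part in its receptor levels was not tested. In NP_Mrgpra3, 4 of 9 receptors were called and all were lower (11.6% of all genes were called lower and 3.12% higher). In NP_Mrgprd 6 were called, all lower (21.7% of all genes, with 5.82% higher). In Th it was 7, all lower (13.9%, with 7.06% higher), and the median log2 fold change of the 9 tested was -3.41, against 0.01 for all genes. In PEP2_Htr3a.Sema5a 4 were called, all lower (10.6%, with 8.74% higher), and in NF2_Ntrk2.Necab2 6, all lower (13.5%, with 7.79% higher). Il31ra is 1 of the lower receptors in each. In PEP3_Trpm8, NF_Calb1 and NF_Pvalb, 1 receptor each was higher (7.28%, 14.8% and 13.4% of all genes) and 5, 5 and 6 were lower (11.1%, 15.8% and 17.5%).

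In endothelial cells 6 of 9 receptors were called higher (17.4% of all genes) and 2 lower (34.2%), with a median log2 fold change of 1.88 against -0.83 for all genes tested. The higher ones were Tnfrsf1a, Il17ra, Il13ra1, Il6st, Il4ra and Osmr. In satellite glia 4 were higher (21.4%) and 3 lower (32.5%), with a median of 0.90 against -0.35. The endothelial cells also carried satellite glia markers, summed to 9282 CPM, and the part of glial RNA in their receptor levels was not tested. Among the 6, Tnfrsf1a, Osmr, Il6st, Il4ra and Il13ra1 were above satellite glia in all 5 libraries, and Il17ra was below them in libraries 2 and 3 (18.5 against 23.6 CPM and 23.2 against 25.8). Fibroblast and mural markers were also detected in endothelial cells, and fibroblast and Schwann cell markers in satellite glia. The part of such cells in these results was not tested.

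**Figure D3:**
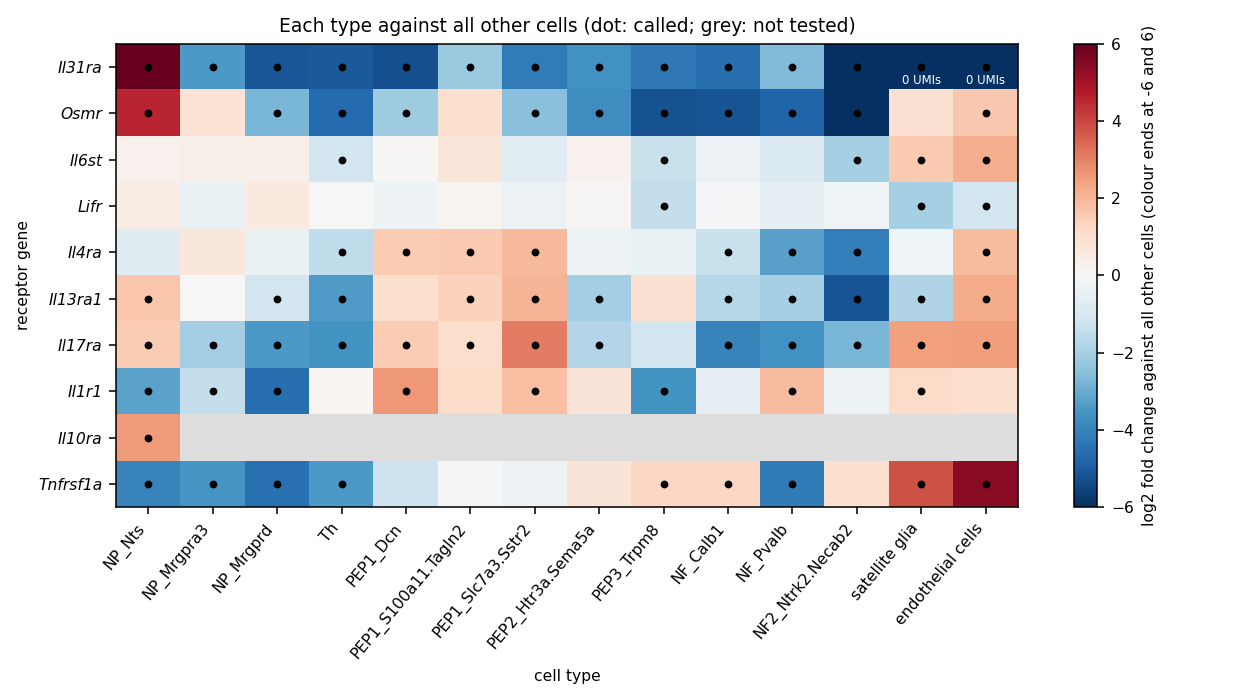
Log2 fold change of each of the 10 receptors (rows) in each of the 14 cell types (columns) against all other cells, in colour from -6 (blue) to 6 (red), with a dot where the difference was called and grey where the gene did not pass the filter. Il31ra is higher in NP_Nts alone, and the values of its 2 types with 0 UMIs depend on the fit and are no measured fold.

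The comparison of the 3 non-peptidergic types asked how receptors differ between related neurons of the skin. Between NP_Nts and NP_Mrgpra3, 7 receptors were tested, and 4 were higher in NP_Nts (7.43% of all genes) and 1 lower (7.68%). Il31ra and Il17ra passed the filter here through NP_Nts, since neither passed it between NP_Mrgpra3 and NP_Mrgprd, so their differences are given as values only. Il31ra differed by 6.93 on the log2 scale (SE 0.19), Il17ra by 3.34 (SE 0.46), Osmr by 2.24 (SE 0.12) and Il13ra1 by 1.46 (SE 0.24). Il4ra was lower in NP_Nts by -1.25 (SE 0.25, edgeR adjusted p = 0.00053), at 21.9, 16.8, 22.3, 10.6 and 8.77 CPM against 15.7, 38.5, 32.5, 27.9 and 32.0, and this difference was -0.99 without library 5. For Il4ra the libraries of the 2 types overlapped. Lifr was higher in NP_Nts by 0.91 (SE 0.12, adjusted p = 5.7e-06), under 2-fold, and Il6st differed by -0.04 (SE 0.14, adjusted p = 0.85).

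Between NP_Nts and NP_Mrgprd, 8 were tested and 5 were called, all higher in NP_Nts (11.5% of all genes were called higher). These were Il31ra (8.02, SE 0.17), Osmr (5.27, SE 0.23), Il17ra (4.24, SE 0.28), Il10ra (2.82, SE 0.33) and Il13ra1 (2.27, SE 0.20). Of these, Il31ra, Il17ra and Il10ra passed the filter through NP_Nts, and only Osmr and Il13ra1 did so also between NP_Mrgpra3 and NP_Mrgprd. Lifr (0.08, SE 0.09), Il6st (0.07, SE 0.13) and Il4ra (-0.39, SE 0.22) did not pass the test. Between NP_Mrgpra3 and NP_Mrgprd, 5 were tested and Osmr was called, higher in NP_Mrgpra3 by 3.07 (SE 0.23, adjusted p = 8.1e-09, where 6.52% of all genes were called higher). Il4ra (0.93, SE 0.16) and Lifr (-0.80, SE 0.11) differed by less than 2-fold, both with adjusted p under 0.01.

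All neurons were set against each of the other cell classes. Against satellite glia, 3 of 9 receptors were higher in neurons (32.6% of all genes) and 4 lower (21.6%). Il31ra, with 0 UMIs in glia, Lifr (1.99, SE 0.13) and Il13ra1 (1.77, SE 0.46) were higher, and Tnfrsf1a (-4.22, SE 0.17), Il17ra (-2.50, SE 0.22), Il6st (-1.59, SE 0.13) and Il1r1 (-1.14, SE 0.34) were lower. The call of Il13ra1 was lost without library 3 or 4 (adjusted p up to 0.0150), and that of Il1r1 without library 1, 3 or 4 or without TMM (adjusted p up to 0.0229). Against endothelial cells, 2 were higher in neurons (43.9%) and 6 lower (14.9%). Il31ra, with 0 UMIs in endothelial cells, and Lifr (1.5, SE 0.18) were higher, and Tnfrsf1a (-5.54, SE 0.16), Il17ra (-2.22), Il6st (-1.85), Il13ra1 (-1.79), Il4ra (-1.47) and Osmr (-1.26, SE 0.25) were lower. Osmr fell under 2-fold without library 3 (-0.997) and Lifr without library 5 (0.94), and Il31ra was not called with sums of at least 10 cells (adjusted p = 0.0135). The median of all genes was 0.35 in the first comparison and 1.25 in the second.

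Since these receptors act as assemblies, cells with UMIs of both chains were counted. Such a share rises with depth and can hold free RNA, whose part was not tested. NF2_Ntrk2.Necab2, among the deepest types, had 3 of the 4 pairs in 0 of 58 cells, all but Lifr with Il6st. Il31ra and Osmr were found together in 399 of 400 NP_Nts cells (99.75%), and in 88.5% after thinning to 10000 UMIs. The next types were PEP1_S100a11.Tagln2 with 31 of 181 cells (17.1%, exact 95% interval 11.9 to 23.4%) and NP_Mrgpra3 with 14 of 104 (13.5%, interval 7.56 to 21.6%), which fell to 3.31% and 1.92% after thinning. Both were found in 0 of 249 satellite glia, which allows up to 1.2% by the 3-count limit and 1.47% by the exact interval, and in 0 of 56 endothelial cells, which allows up to 5.36% and 6.38%. In the 900 NP_Mrgprd cells, the deepest type at a median of 105150 UMIs, 2.22% did.

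Osmr and Il6st were spread more widely. Both were found in 90.4% of NP_Mrgpra3 cells, 79% of NP_Nts, 77.3% of PEP1_S100a11.Tagln2, 75% of endothelial cells (interval 61.6 to 85.6%) and 49.0% of satellite glia. At equal depth the order was another, with 50% of endothelial cells, 27.25% of NP_Nts, 25.3% of satellite glia, 18.2% of PEP1_S100a11.Tagln2 and 11.5% of NP_Mrgpra3. NF2_Ntrk2.Necab2, had the pair in 0 of 58 cells, which allows up to 5.17%, at a median depth of 96530.5 UMIs. Lifr and Il6st were found together in every type, in 22.6% of PEP3_Trpm8 cells to 91.3% of NP_Mrgpra3, and in 5.17% of NF2_Ntrk2.Necab2 to 41.1% of endothelial cells after thinning. Il4ra and Il13ra1 were both found in 48.2% of PEP1_Slc7a3.Sstr2 cells (11.4% thinned), 45.9% of PEP1_S100a11.Tagln2 (5.52%), 38.5% of NP_Mrgpra3 (0.962%), 34.97% of PEP1_Dcn (4.91%), 27.75% of NP_Nts (1.25%) and 26.8% of endothelial cells (16.1%). In satellite glia the pair was found in 1 of 249 cells.

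**Figure D4:**
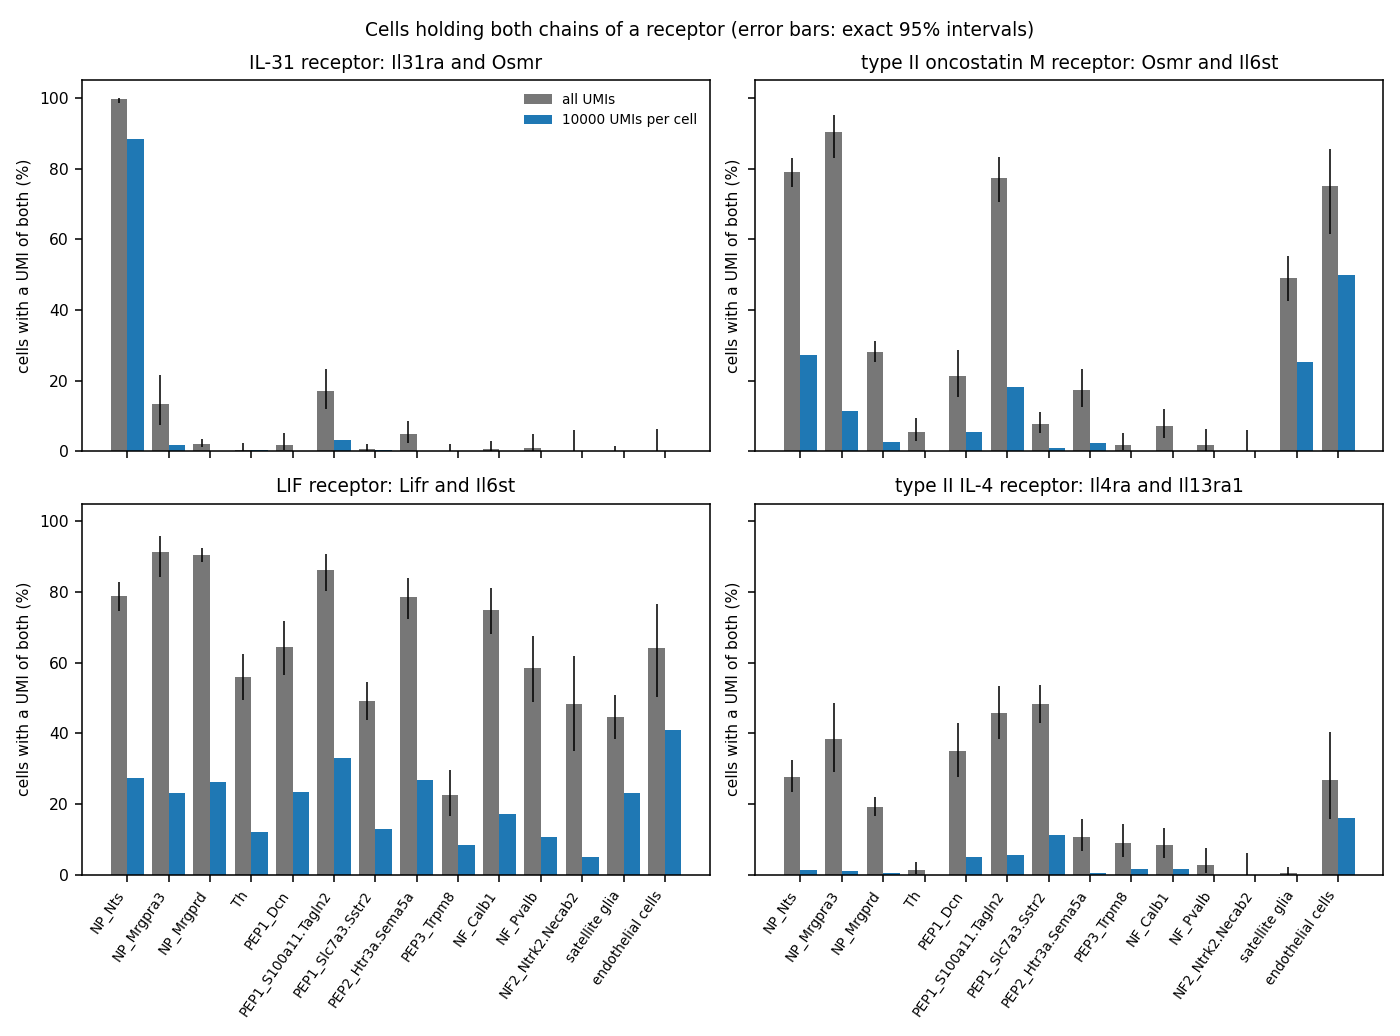
Share of cells with a UMI of both chains, in percent, for 4 receptors in the 14 cell types, from all UMIs (grey, with exact 95% intervals) and after thinning each cell to 10000 UMIs (blue). Il31ra with Osmr reaches 99.75% in NP_Nts and 17.1% or less elsewhere, whereas Lifr with Il6st is found in all 14 types.

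Over 13474 genes with at least 100 UMIs, the genes with the most similar pattern were sought by the Pearson correlation of log2(CPM + 1) of the type means over the 14 types, which share libraries and differ in depth. For Il31ra these were Il1r2 (0.96), Rad9b (0.95) and Olfr1372-ps1 (0.95), all highest in NP_Nts. For Osmr they were Tmem63a (0.92), 4833418N02Rik (0.91) and Rfx2 (0.89). The first in line was Pdlim5 for Il6st (0.94), Kat7 for Lifr (0.91), Kif13b for Il4ra (0.89) and Rasip1 for Il13ra1 (0.92). It was Gadd45g for Il17ra (0.93), Frmd4a for Il1r1 (0.84), 4930579K19Rik for Il10ra (0.89) and Zfp36 for Tnfrsf1a (0.94).

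Of the genes that act with these receptors, the Janus kinase Jak1 stood out in NP_Nts. Its level was 2191, 2745, 2396, 2427 and 2342 CPM there and at most 708 CPM in any library of another type, and the log2 fold change against other cells was 3.71 (SE 0.11, edgeR adjusted p = 1.3e-11). Il1r2, a decoy receptor that takes up IL-1 without signalling, was at 24.8, 24.7, 13.3, 12.4 and 21.4 CPM in NP_Nts and at most 1.96 CPM in any library of another type (5.93, SE 0.27). Il1r2 passed the filter on low counts in NP_Nts but not in satellite glia or endothelial cells, so its fold change is a description only. Socs2, an inhibitor of cytokine signalling, was at 703 ± 69 CPM in NP_Nts and 433 ± 53 in endothelial cells, the next type (2.24, SE 0.12). Irak3 (1.61), a brake on IL-1 signalling, and Chuk (1.06), an NF-kB kinase, were also higher.

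**Figure D5:**
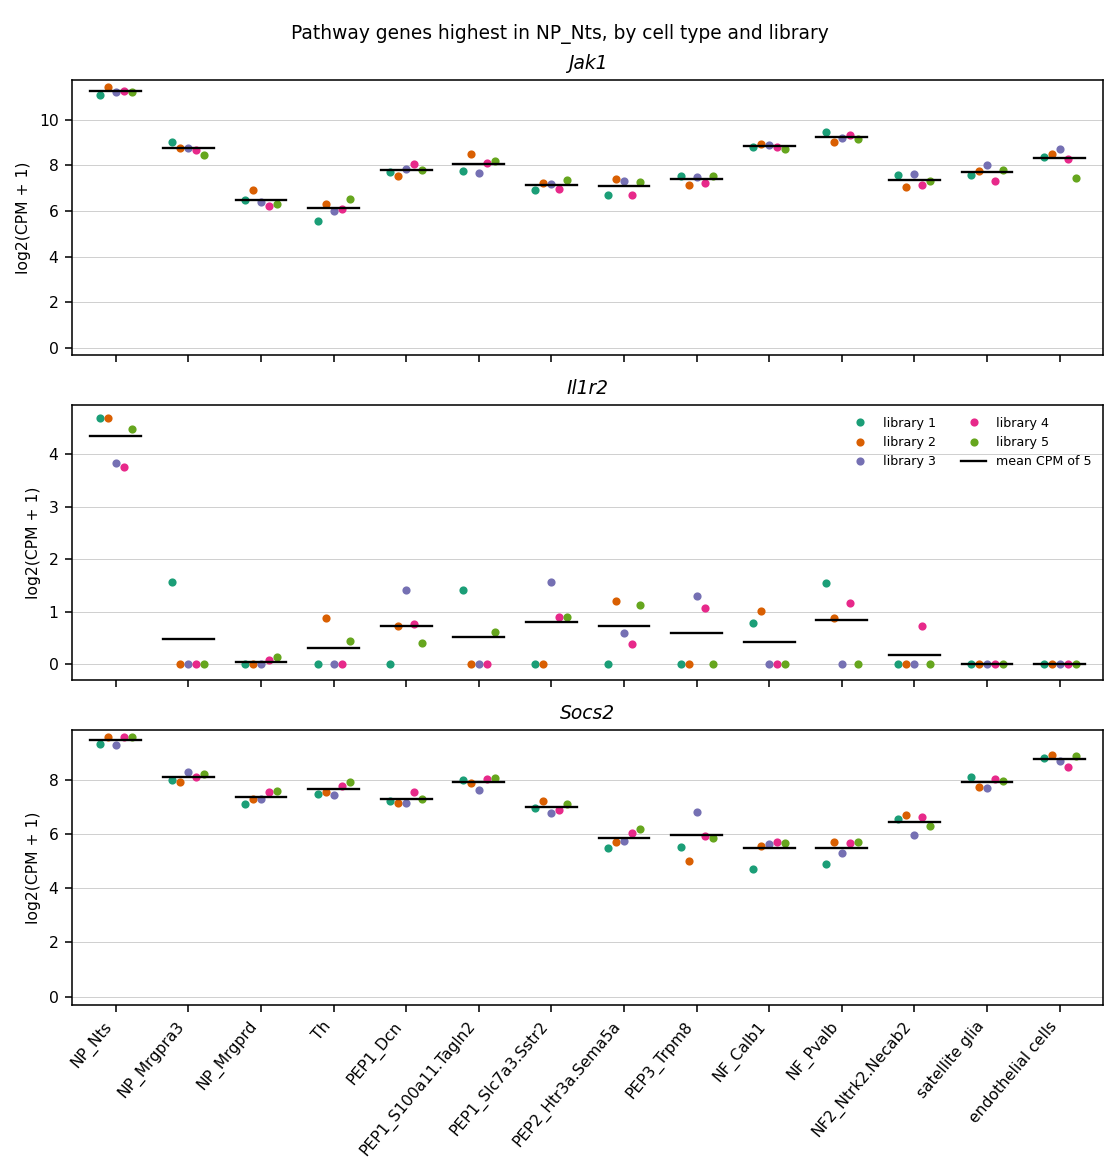
Levels of Jak1, Il1r2 and Socs2 as log2(CPM + 1) in the 14 cell types, 1 point per library and a bar at the mean CPM of 5. The 5 libraries of NP_Nts lie above all other types for the 3 genes, at means of 2420, 19.3 and 703 CPM.

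The counts by list are read beside the 6.13% of all genes called higher and 18.5% called lower in NP_Nts, and several are near these shares. There, 1 of 3 Janus kinases tested was higher, and 1 of 8 SOCS inhibitors. The 6 STAT factors differed by less than 2-fold there, from -0.49 (Stat5b) to 0.55 (Stat3), with a median of 0.17. Of 14 partner receptors tested, 1 was higher, namely Il1r2, which passed the filter through its level in NP_Nts. Of the same 14, 6 were lower, among them Cntfr (-3.78, SE 0.30), Ifngr1 (-2.50, SE 0.23) and Il17rc (-2.46, SE 0.21). Of 5 ligands tested, Il18 (-6.37, SE 0.68) and Il6 (-1.14, SE 0.29) were lower. The call of Il6 was lost without library 1, 2 or 4 (adjusted p up to 0.0468). Of the adaptors, 1 of 12 was higher and 1 lower (Ripk1, -1.29), and of the NF-kB components 1 of 11 was higher and 2 lower (Rel, -1.33, and Nfkb1, -1.14). Ripk1, Rel and Nfkb1 were not called against other neurons, at -0.42, -0.81 and -0.74, nor without library 1 or 2, and Nfkb1 was not called with the library as a block (-0.99).

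In satellite glia, where 21.4% of all genes were called higher and 32.5% lower, all 8 ligand genes tested were called higher, with a median log2 fold change of 3.87 against -0.35 for all genes. Among them were Lif (6.73, SE 0.66), Clcf1 (5.99, SE 0.41) and Il18 (4.60, SE 0.19), at 11.3, 24.95 and 54.6 CPM. Lif and Clcf1 signal through Lifr and Il6st, and Lifr was at its lowest in glia. Lif, Clcf1 and Il33 did not pass the filter in NP_Nts and were tested in glia through the types where they are high. Endothelial cells had higher means for Lif (11.98 CPM), Clcf1 (45.2) and Il6 (66.3 against 23.7 in glia), and Il18 was highest in glia. Of 13 partner receptors tested 7 were higher and 4 lower, led by Il1rap (5.27), Il6ra (4.60), Il11ra1 (3.31) and Cntfr (2.69). Of 11 NF-kB components 6 were higher, with Nfkb2 (6.84), Rela (3.65), Nfkb1 (3.58) and Rel (3.36) in front. Of 12 adaptors 7 were higher and 3 lower, with Ripk1 (4.59), Myd88 (3.73) and Birc3 (3.43) among the higher, and Irak3 had no UMI in glia. Socs3 (3.49), Stat5a (3.04), Stat2 (1.33), Jak2 (1.28) and Socs6 (1.26) were higher and Stat6 (-2.88), the factor of IL-4 signalling, was lower. The call of Socs6 was lost without library 3 (adjusted p = 0.0122).

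In endothelial cells, where 17.4% of all genes were called higher and 34.2% lower, 6 of 13 partner receptors tested were higher and 2 lower, with Il6ra (6.86, SE 0.46), Tnfrsf1b (4.46, SE 0.25), Il17rd (2.78) and Ifnar2 (2.37) in front. Nfkbia, the inhibitor of NF-kB that is itself an NF-kB target, was at 4147 ± 459 CPM against 604 ± 144 in satellite glia (log2 fold change 5.78, SE 0.20). Rel (4.51), Nfkb2 (4.0) and Rela (3.10) were higher too, as were 6 of 11 NF-kB components in all. Of 12 adaptors 8 were higher and 1 lower, with Ripk1 (4.16), Birc3 (3.62) and Myd88 (3.23) higher and Tradd (-3.06) lower. Clcf1 (5.89) and Il6 (2.83) were higher among 4 ligands tested. Jak3 (3.78, 6 UMIs in all), Jak2 (2.48), Stat2 (1.47), Stat3 (1.04), Socs3 (1.74), Socs6 (1.59) and Socs2 (1.15) were higher, and Stat6 (-1.48) and Socs7 (-1.35) were lower. Jak3 passed the filter on low counts in endothelial cells but not in NP_Nts or satellite glia, so its value is a description only. With the library as a block, Stat3 (0.9991, under 2-fold) and Socs6 (adjusted p = 0.0144) were not called. Jak3 and Socs6 were lost with sums of at least 10 cells (adjusted p = 0.0138 and 0.0121), and Stat3 and Socs2 fell under 2-fold with DESeq2 (0.81 and 0.90). The transcripts of Il31, Osm, Cntf, Il4, Il13 and Il17a had no row in the matrix used here and were not analysed.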

How the data were processed

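The authors counted UMIs with Cell Ranger 2.0.0 on mm10, chose and clustered cells with Seurat 3.0.1 (500 to 15000 genes, mitochondrial share up to 10%, 15 principal components, resolution 0.6) and deposited raw counts, not normalized, with 1 type per cell (NF_Calb1 is spelled NF_Ca1b1 there). Here 4 rows that name no mouse gene were left out, no cell was removed (188 exceeded 10% mitochondrial UMIs) and no doublet caller was run. Counts were summed per type and library. Tests used edgeR 4.0.16 in R 4.3.3 (filterByExpr defaults, TMM, quasi-likelihood, Benjamini-Hochberg over all genes tested), and DESeq2 1.42.0 as an alternative. The SE is the log2 fold change over the root of F. On simulated data with 200 genes changed 4-fold, 94.5% were recovered for NP_Nts, 61.5% for endothelial cells and 92.5% between NP_Nts and NP_Mrgpra3. Named pathway genes are, in NP_Nts, satellite glia and endothelial cells, the called genes of largest change, up to 4 per list, of which some are not reported here. The receptors and lists were chosen with earlier results of these data known. Sums of 1 library share a mouse, but the main tests did not pair them, and the library was a block only in an alternative. These sums had correlations of -0.021 to 0.398 after the group means were removed.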

Additional observations from a re-analysis of the deposited data

Results flagged for a closer look

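Of 80 levels with at least 50 UMIs, 7 had 1 library that lay apart from the other 4 by Dixon's test at its 95% critical value, and chance flags about 1 in 20. The flagged library of Osmr in NP_Mrgpra3 was library 1 at 94.0 CPM with 4 cells, against 57.4 to 66.9 CPM. For Lifr in endothelial cells it was library 1 at 51.5 CPM with 3 cells, against 94.3 to 106 CPM. For Il4ra it was library 2 in PEP1_S100a11.Tagln2 at 98.9 CPM, against 41.2 to 56.4 CPM, and library 3 in satellite glia at 32.9 CPM, against 10.3 to 15.1 CPM. Il13ra1 in NP_Mrgpra3 was low in library 2 at 3.35 CPM, against 5.87 to 6.77 CPM. Il17ra in NP_Nts was high in library 3 at 15.2 CPM, against 11.03 to 11.9 CPM. Tnfrsf1a in PEP1_S100a11.Tagln2 was at 0 CPM in library 1 with 10 cells, against 10.0 to 13.4 CPM.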

How the results depend on the processing

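Of the 109 called differences of the receptors, 92 were called under every alternative run, 17 were lost under at least 1, and none reversed. Of the 60 named differences of pathway genes, 10 were lost under at least 1 and none reversed. Between NP_Mrgpra3 and NP_Mrgprd the count of 1 became 2 without a filter on low counts and 3 without a fold minimum. The level of Osmr in NP_Nts was 368 CPM with cells thinned to 10000 UMIs and 360 CPM as the mean over single cells without thinning, against 335.8 CPM. The first 2 values weigh each cell of a library equally, whereas the last weighs deep cells more. The cause of the shift was not tested. Over the types, 83 calls became 79 to 83 when 1 library was left out, 84 with DESeq2 and 80 without TMM. With the library as a replicate block there were 85, and no call of a receptor was lost, while calls lost among the pathway genes included Nfkb1 in NP_Nts and Stat3 and Socs6 in endothelial cells. Without 1 library the counts were 4 to 5 between NP_Nts and NP_Mrgpra3, 4 to 5 between NP_Nts and NP_Mrgprd, 5 to 8 for neurons against satellite glia and 7 to 8 against endothelial cells. Leaving out a library moved the level of Il17ra in endothelial cells to 23.5 to 36.1 CPM and of Il1r1 in PEP1_Dcn to 15.2 to 24.7 CPM, an alternative chosen after seeing the data. Without TMM the median of all genes shifted by -0.26 in NP_Mrgprd, -0.18 in NP_Mrgpra3 and -0.17 in satellite glia against other cells, by -0.36 for neurons against endothelial cells and by 0.17 against satellite glia, and by 0.11 and 0.13 between NP_Nts and the other non-peptidergic types, and with DESeq2 by -0.18 in endothelial cells and -0.20 for neurons against them. Depth limits Il10ra, with 118 UMIs, and the 56 endothelial cells.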
